A study of Mus musculus with 2 samples.

Results

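The cells described here are colon epithelial cells, captured in single-cell libraries that were made to profile the immune cells of the gut wall. A barcode was taken as epithelial when it had at least 200 genes and at most 50% of its unique molecular identifiers (UMIs, 1 per captured RNA molecule) from mitochondrial (mt-) genes, at least 3 UMIs summed over Epcam, Krt8, Krt18, Krt20 and Car1 with at least 2 of these 5 genes detected, and at most 1 UMI summed over the leukocyte genes Ptprc, Cd79a, Cd3e, C1qa and Lyz2. By this rule 243 of the 2872 barcodes kept in the WT library and 17 of the 2900 kept in the KO library were epithelial, 260 of 5772 in all. The deposited matrices hold 6205 barcodes.

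The study compared the immune cells of the colon lamina propria between wild-type (WT) mice and knockout (KO) mice in which CRISPR-Cas9 removed a long non-coding RNA gene, called LncRNA17Rik in the labels and lncLy6c in the study. Each genotype is represented by 1 library of cells pooled from several young adult male mice, so no test between genotypes was possible, and the intervals given below cover counting error only. Both libraries are labelled cd11b+ and gut lamina propria, and both were made from the Percoll interphase of the colon after staining for a sort, with dead cells removed by 7-AAD according to the labels, with the 3' chemistry of 10x Genomics. The labels give no further allele and no treatment. Cas9 was injected into zygotes, so the deletion was not limited to a cell type. The cd11b label names a myeloid surface protein encoded by Itgam, and the epithelial cells went against it: Itgam was at 4.04 CPM (UMIs per 1000000 UMIs outside mt- genes) in the WT epithelial cells, with a UMI in 4.53% of them, and at 0 in the KO ones, whereas 46.1% of the WT leukocytes had an Itgam UMI.

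The colon is lined by a single sheet of epithelial cells that is renewed from stem cells at the base of the crypts. Absorptive colonocytes, which move up the crypt as they mature, take up salt, water and the short-chain fatty acid butyrate, their main fuel, while goblet cells secrete the mucus that keeps bacteria at a distance. Rarer secretory cells release hormones (enteroendocrine cells) or sense luminal signals (tuft cells). Detached epithelial cells lose their contact with the matrix and are known to be fragile during tissue dissociation.

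Library totals were 22191774 UMIs for WT and 23384895 for KO. The 2 libraries shared 1 barcode, and no epithelial cell carried it. WT epithelial cells had a median of 4642 UMIs outside mt- genes (quartiles 1975 and 17385, range 465 to 57481) and 1855 genes, and the KO cells a median of 3542 UMIs and 1403 genes. Leukocytes, used below for comparison, were kept barcodes with at least 3 UMIs of the 5 leukocyte genes, of which there were 1990 in WT (median 6014 UMIs) and 2168 in KO (median 8057 UMIs). All levels are summed over the cells of a library. In the WT epithelial cells 1 UMI is worth 0.367 CPM and in the KO ones 6.71 CPM, so that a count of 0 allows a level of up to 1.10 CPM (3 counts) in WT and 20.1 CPM in KO.

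The share of epithelial cells differed widely between the libraries. They made up 8.46% of the kept WT barcodes (95% Clopper-Pearson interval 7.47 to 9.54) and 0.586% of the kept KO barcodes (0.342 to 0.937). The intervals did not overlap, but with 1 library per genotype the genotype cannot be told apart from the dissociation, the gradient or the sort of that library. The RNA of these genes in other barcodes moved the same way: the 5 epithelial genes stood at 615 CPM in the WT leukocytes and at 65.5 CPM in the KO leukocytes. No limit on epithelial RNA was set for the leukocytes, so barcodes rich in it add to these sums. Krt8 was at 283 CPM in the WT leukocytes but at 23.5 CPM in WT B cells (at least 3 Cd79a UMIs). In KO it was at 20.3 and 4.15 CPM, the latter from 2 UMIs. The part of such barcodes in the difference was not tested. Of all UMIs of these 5 genes, 67.3% of the 51988 in WT and 35.4% of the 2861 in KO lay in the epithelial cells.

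The values that chose the cells are given as a description. In the WT epithelial cells Krt8, a keratin of simple epithelia, had a UMI in 99.2% of cells at 6249 CPM, the adhesion molecule Epcam in 91.4% at 1719 CPM and Krt18, the partner of Krt8, in 85.2% at 760 CPM. The carbonic anhydrase Car1 was seen in 48.6% at 3842 CPM and Krt20, a keratin of mature colonocytes, in 18.1% at 262 CPM. The rule therefore rested mainly on Krt8 and Epcam, and the latter 2 genes marked a subset. At the edge of the rule, the 5 WT cells with exactly 3 epithelial UMIs had Lgals4, an epithelial galectin the rule did not use, at 1592 CPM, against 225 CPM in the 17 WT barcodes with 2 epithelial UMIs that stayed outside. In KO the few barcodes went the other way, with Lgals4 at 0 in the 2 cells inside and at 8749 CPM in the 2 outside. At the other edge, 50 of the WT cells carried 1 UMI of a leukocyte gene (Lgals4 at 3866 CPM), and the 25 barcodes outside with 2 such UMIs had Lgals4 at 2983 CPM and a median of 23016 UMIs. The 21 WT cells with an mt- share of 45 to 50% had Lgals4 at 3925 CPM and the 12 barcodes at 50 to 55%, outside the limit, at 1617 CPM.

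The mt- share was high and widely spread. In the WT epithelial cells it ranged from 0.0945 to 49.9% of a cell's UMIs, with a median of 17.6% and quartiles of 8.81 and 33.7%, and over all their UMIs together it was 15.5%. The 1990 WT leukocytes had a median of 3.74%. The limit of the study, 15%, was passed by 135 of the 243 WT epithelial cells (55.6%) and by 2.21% of the WT leukocytes, so that with its limits of 200 to 6000 genes only 98 of the 243 would have been kept. The KO cells ran from 0.276 to 46.3% with a median of 4.67%, and 6 of the 17 (35.3%) lay over the limit. The ranges of the 2 libraries overlapped almost fully, and 10 of the 17 KO cells met the limits of the study.

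The excess was spread over the mitochondrial transcripts. In the WT epithelial cells mt-Co1, which encodes a subunit of cytochrome oxidase, took 4.57% of all UMIs against 1.13% in the WT leukocytes, mt-Atp6, of the ATP synthase, 2.78% against 0.718%, mt-Co2 2.16% against 0.686% and mt-Cytb 1.16% against 0.303%. The nuclear-encoded genes of the same respiratory chain were higher as well, though by less. Cox4i1, a nuclear subunit of cytochrome oxidase, stood at 2508 CPM against 861 CPM in leukocytes (2.91-fold), and the 15 genes of this list together at 13939 CPM against 4902 CPM.

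**Figure D1:**
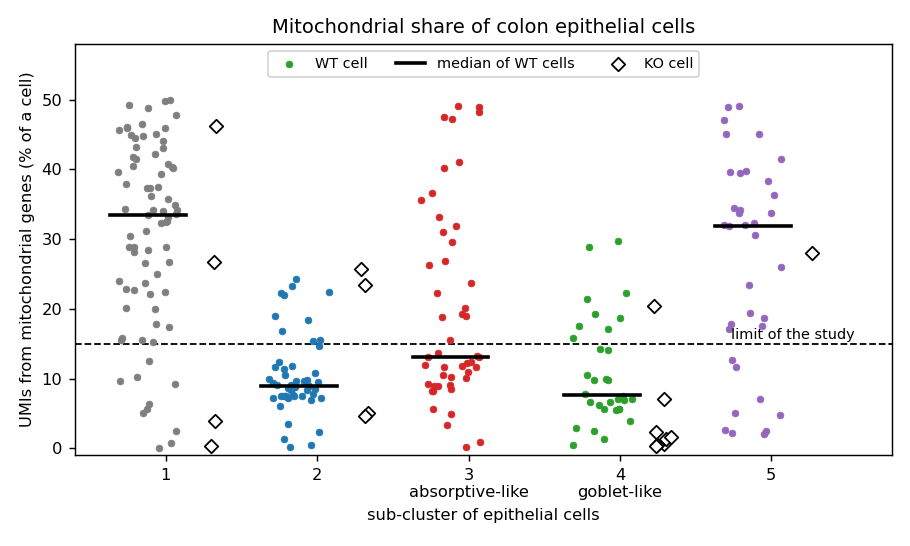
Share of UMIs from mitochondrial genes (vertical axis, % of a cell's UMIs) in each epithelial cell, by sub-cluster (horizontal axis); filled points are WT cells, bars their medians, diamonds KO cells, and the dashed line the 15% limit of the study. Sub-clusters 1 and 5 lie mostly above the line and sub-clusters 2, 3 and 4 have their medians below it, while single cells of each reach both sides.

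The WT epithelial cells were set out in 3 bands of mt- share to see what changed with it. Cells at or below 15% numbered 108 and had a median of 16855 UMIs, the 58 cells at 15 to 30% had 5937 and the 77 cells above 30% had 2808, so depth fell as the mt- share went up. Epithelial genes outside the rule were present in all 3 bands, with Krt19 at 2291, 2722 and 2310 CPM and Pigr, which carries IgA across the epithelium, at 4352, 5580 and 5918 CPM. Of the genes of the rule, given as a description, Epcam was at 1733, 1774 and 1509 CPM, Krt8 at 6419, 6337 and 4848 CPM and Krt18 at 647, 960 and 1190 CPM. Lypd8, a protein of mature colonocytes that keeps bacteria off the surface, stood at 4842, 5423 and 1333 CPM. The goblet genes were concentrated in the low band, with Muc2 at 3244, 1604 and 153 CPM. RNAs that stay in the nucleus or come from ribosomal DNA took the opposite course. Malat1, a nuclear non-coding RNA, stood at 10868, 21041 and 38535 CPM, and Gm42418, a locus that overlaps ribosomal RNA sequence, at 11611, 37360 and 127000 CPM. The genes of the nuclear-encoded respiratory chain were at 15102, 12983 and 7390 CPM. Whether the mt- share, the depth or the kind of cell goes with each of these differences was not tested.

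Genes the rule did not use identified the cells as epithelial. Of the 20 genes of an epithelial identity list, all were found in the WT cells and 19 were at least 4-fold higher than in the WT leukocytes, where 14.9% of the 12721 genes compared passed this mark and 12.6% were at least 4-fold lower. The median of the list was 3.68 on the log2 scale (with 10 CPM added to each level) against 0.10 over all genes. The claudin Cldn7 stood at 1565 CPM against 69.1 CPM, the galectin Lgals4 at 3582 against 177 CPM, Krt19 at 2376 against 147 CPM and the cadherin Cdh17 at 394 against 19.3 CPM. The exception was Ezr, whose product ezrin links membrane to actin in many cell types including leukocytes, at 518 CPM against 274 CPM. Since the leukocyte reference was itself chosen by other genes of the same cells, this comparison is a description of the 2 sets. The size of a ratio depends on this reference, which also holds barcodes rich in epithelial RNA. In the WT B cells Lgals4 was at 15.2 CPM.

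**Figure D2:**
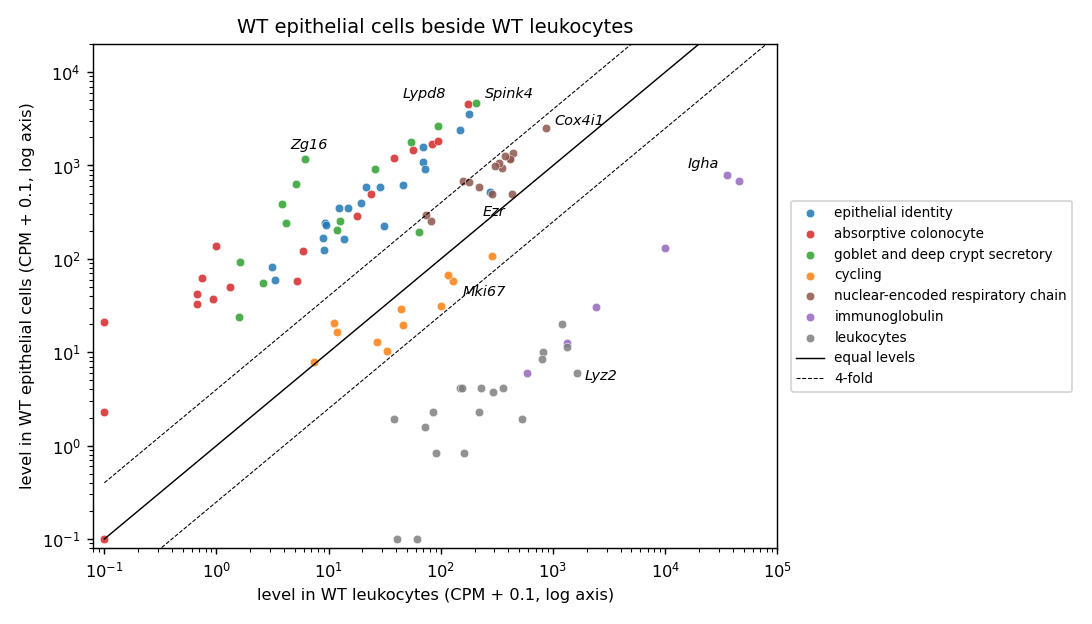
Level of list genes in WT epithelial cells (vertical axis, CPM + 0.1, log scale) against their level in WT leukocytes (horizontal axis, same units); each point is a gene, coloured by list, with a solid line at equal levels and dashed lines at 4-fold. Epithelial identity, absorptive and goblet genes lie above the upper dashed line, except Ezr, Reg4 and Scnn1g, which had no count, and leukocyte and immunoglobulin genes below the lower line.

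Free epithelial RNA in the droplets sets the background for shares of cells. A Krt8 UMI was found in 99.2% of the WT epithelial cells, in 20.9% of the WT leukocytes and in 2.35% of the KO leukocytes. B cells with at least 3 Cd79a UMIs, which should lack Krt8, had it in 19.8% of 308 WT cells at a median of 9190 UMIs. With every cell thinned to 500 UMIs, which left out 1 epithelial cell and 6 leukocytes, Krt8 was seen in 81.8 against 3.83%, Lgals4 in 69.4 against 2.37%, Pigr in 78.1 against 2.27% and Muc2 in 14.5 against 1.41%. Krt8 was used by the rule, so its share was fixed by the choice of cells. For Lgals4, Pigr and Muc2, which were not used, the shares in the epithelial cells stayed above this background.

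The 20 genes highest in the WT epithelial cells relative to leukocytes were mostly secreted or surface proteins of the gut lining. Zg16, a lectin of goblet cell mucus, led with 1163 CPM against 6.01 CPM (193-fold). Tff3, the trefoil peptide of goblet cells, was at 629 CPM (126-fold), Mptx1, a secreted pentraxin, at 1651 CPM (107-fold), and Fcgbp, a mucus protein, at 392 CPM (104-fold). Widely detected members of the group were Pigr (4742 CPM, 94.2% of cells, 26.6-fold), Lypd8 (4610 CPM, 76.1%, 26.6-fold) and the surface mucin Muc13 (1203 CPM, 73.7%, 31.4-fold). The others were Sval1, Sycn, Agr2, Klk1, Muc2, Oit1, Wfdc2, Ckmt1, Reg3b, Muc3, Krt20, Spink4 and Cela1, from 22.9-fold (Spink4) to 140-fold (Sval1). Some rested on few cells: a single cell held 53.3% of the Zg16 UMIs and another 61.4% of the Cela1 UMIs.

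Promoters of these genes, 250 bases before to 50 after the start, were taken from RefSeq on GRCm38.p6, where 17 of the 20 genes had an entry (Zg16, Tff3 and Spink4 had none). They were searched on both strands for TTTATNG, a short form of the sequence bound by the intestinal factor CDX2, and CAAAGNNCA, a short form of that bound by HNF4A, both of which the cells expressed (Cdx2 at 124 CPM and Hnf4a at 167 CPM). The CDX letters occurred in 3 of the 17 (17.6%) and in 11.3% of all 27025 promoters, and the HNF4 letters in 1 of the 17 (5.88%, Muc3) and in 6.37% of all. The 3 promoters with the CDX letters are shown with the match in capitals, which also resembles a TATA box, together with that of Pigr, the most widely detected of these genes, which held neither. They lie at chr12:35992675-35992974 (plus strand), chr14:8378714-8379013 (minus strand), chr11:99438104-99438403 (minus strand) and chr1:130826434-130826733 (plus strand), each read 5′ to 3′ along the gene.
Agr2: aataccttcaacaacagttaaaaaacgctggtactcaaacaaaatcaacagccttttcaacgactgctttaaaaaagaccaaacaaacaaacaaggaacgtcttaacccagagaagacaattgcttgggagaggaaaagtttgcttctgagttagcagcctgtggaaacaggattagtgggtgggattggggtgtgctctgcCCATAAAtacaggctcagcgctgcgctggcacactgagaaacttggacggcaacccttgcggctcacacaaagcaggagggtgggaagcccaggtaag
Oit1: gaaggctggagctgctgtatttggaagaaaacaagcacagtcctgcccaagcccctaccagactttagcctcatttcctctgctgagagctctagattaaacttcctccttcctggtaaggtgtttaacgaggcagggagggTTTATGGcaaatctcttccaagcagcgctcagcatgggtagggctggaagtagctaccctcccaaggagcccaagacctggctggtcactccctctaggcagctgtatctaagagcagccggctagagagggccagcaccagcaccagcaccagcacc
Krt20: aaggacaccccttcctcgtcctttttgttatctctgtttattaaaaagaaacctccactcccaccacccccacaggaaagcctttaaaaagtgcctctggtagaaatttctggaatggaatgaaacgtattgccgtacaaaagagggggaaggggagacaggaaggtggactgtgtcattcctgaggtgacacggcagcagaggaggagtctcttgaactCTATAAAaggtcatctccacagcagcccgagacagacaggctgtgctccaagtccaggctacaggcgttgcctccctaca
Pigr: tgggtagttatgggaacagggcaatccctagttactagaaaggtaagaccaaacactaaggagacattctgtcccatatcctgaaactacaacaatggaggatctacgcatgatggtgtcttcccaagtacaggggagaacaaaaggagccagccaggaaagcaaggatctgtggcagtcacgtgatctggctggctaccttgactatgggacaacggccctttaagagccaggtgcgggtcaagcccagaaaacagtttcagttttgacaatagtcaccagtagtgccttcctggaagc
A match is only a run of letters, and no binding was measured.

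Apart from mt- and ribosomal protein genes, the 20 most abundant transcripts of the WT epithelial cells mixed housekeeping and epithelial genes. Since only the 3' end of each molecule was read, counts were not divided by length. Gm42418 (27874 CPM), Malat1 (15536 CPM) and Gm26917 (7043 CPM), which lies beside Gm42418, came first, followed by Krt8, Actb (5464 CPM), Pigr, Spink4 (4668 CPM), Lypd8, the calcium-binding protein gene S100a6 (4417 CPM) and Actg1 (4304 CPM). Eef1a1, Car1, Tpt1, Lgals4, Dmbt1, a scavenger receptor of mucosal surfaces (2628 CPM), Muc2 (2626 CPM), the metallothionein gene Mt1 (2528 CPM), Cox4i1, Krt19 and Dstn (2213 CPM) completed the list.

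Both specialised programmes of the colon lining were present. All 16 absorptive colonocyte genes compared (of 18 listed) were at least 4-fold above leukocytes, with a median log2 ratio of 3.24, and so were 13 of the 14 goblet and deep crypt secretory genes, with a median of 4.30. Reg4, a secreted lectin, was the exception at 192 against 63.2 CPM. The 2 programmes were held by different cells. In WT, 33 epithelial cells had more than 1% of their UMIs from the goblet list, 56 had more than 1% from the absorptive list, and no cell had both. Likewise 32 cells had at least 5 UMIs of the mucin Muc2 and 50 had a UMI of the chloride exchanger Slc26a3, with 1 cell in both sets. Mki67, a marker of cycling cells, was detected in 49 cells and Krt20 in 44, with 3 in both.

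**Figure D3:**
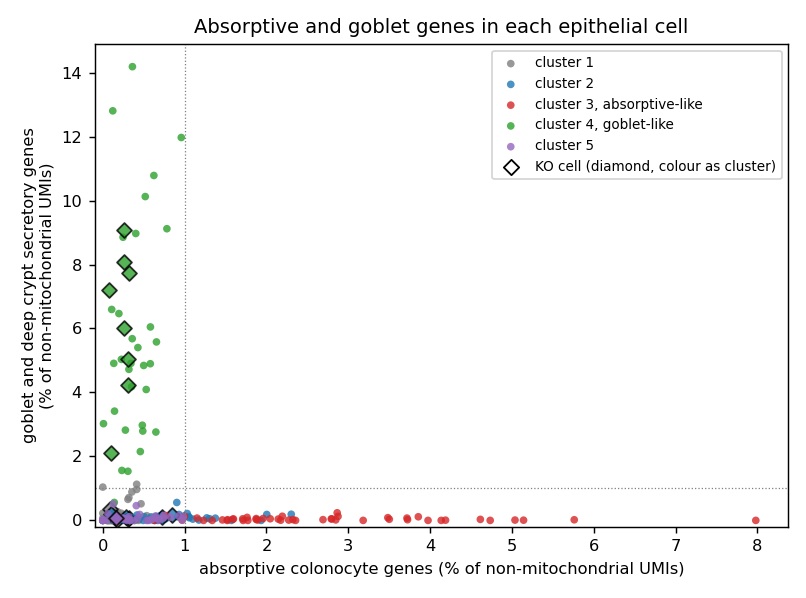
Share of UMIs outside mitochondrial genes from the goblet and deep crypt secretory list (vertical axis, %) against that from the absorptive colonocyte list (horizontal axis, %), 1 point per epithelial cell, coloured by sub-cluster, with KO cells as diamonds and dotted lines at 1%. The cells spread along either axis, the upper right field is empty, and 8 KO cells lie above the horizontal dotted line and none to the right of the vertical one.

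Clustering of the 260 cells gave 5 sub-clusters. Genes that define a sub-cluster are a description, since they made it. Sub-cluster 3 (48 WT cells, 0 KO) had 14 of the 18 absorptive genes raised at least 2-fold over the other cells and was absorptive colonocyte-like. Sub-cluster 4 (32 WT, 8 KO) had all 14 goblet genes raised and was goblet-like. Sub-clusters 1 (77 WT, 4 KO), 2 (50 WT, 4 KO) and 5 (36 WT, 1 KO) took no name. At a higher clustering resolution 7 sub-clusters formed, with sub-cluster 3 split into 27 and 21 cells and sub-cluster 1 into 48 and 33.

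**Figure D4:**
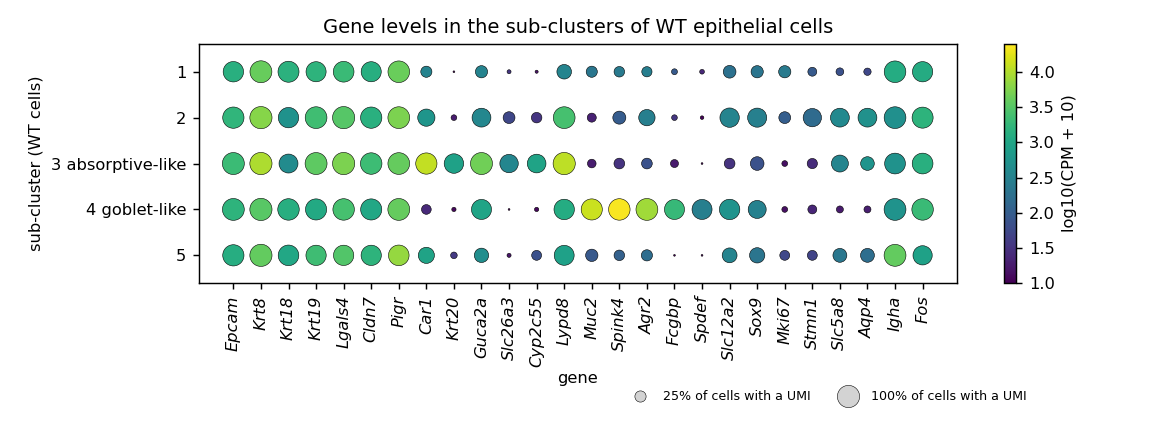
Level (colour, log10 of CPM + 10) and share of cells with a UMI (dot area) of 26 genes (horizontal axis) in the WT cells of the 5 sub-clusters (vertical axis). Epcam to Pigr are high in every row, Car1 to Lypd8 highest in sub-cluster 3, and Muc2 to Spdef highest in sub-cluster 4.

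The absorptive colonocyte-like cells had a median of 12072 UMIs and an mt- share of 13.2%, and 22 of the 48 lay over 15%. Their absorptive list stood at 27957 CPM, against 2075 to 7247 CPM in the other sub-clusters. Car1 was at 12223 CPM, Lypd8 at 11672, Guca2a, which encodes guanylin, a regulator of salt and water secretion, at 4598, and Cyp2c55, a cytochrome P450 of the colon, at 939 CPM. Transporters of mature colonocytes were highest in these cells, though a Slc26a3 UMI was also found in 28% of the WT cells of sub-cluster 2. Slc26a3 stood at 355 CPM in the absorptive-like cells and at 0 to 43.1 CPM in the other sub-clusters. The sodium-proton exchanger Slc9a3 was at 114 CPM there and at 0 elsewhere. The water channel Aqp8 was at 137 CPM and at most 9.95 CPM elsewhere, and Car4 at 165 CPM and at most 16.5 CPM elsewhere. Genes of other programmes led this sub-cluster too, among them the interferon-induced Isg15 (945 CPM against 65.7 CPM in all other cells), Ifit1bl1 (453 against 0.479 CPM) and Slfn4 (557 against 13.9 CPM), and the acute-phase gene Saa1 (472 against 1.44 CPM).

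The goblet-like WT cells had a median mt- share below the limit of the study and gave 64324 CPM to the goblet list, against 372 to 1508 CPM in the other sub-clusters. Spink4 was at 23445 CPM, Muc2, the main mucin of colon mucus, at 13227, Agr2, a chaperone needed to fold it, at 8281, Zg16 at 5838 and Fcgbp at 1905 CPM. The transcription factors of the lineage were found nearly only there: Spdef stood at 271 CPM and at most 14.9 CPM elsewhere, and Atoh1 at 118 CPM and at most 1.96 CPM elsewhere. Foxa3 was at 164 CPM, and the bestrophin channel Best2 at 162 CPM and at 0 in the other 4 sub-clusters. Slc12a2, the chloride uptake carrier of secretory crypt cells, was highest there as well, at 555 CPM against 21.6 CPM in the absorptive-like cells.

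Sub-cluster 2 held the deepest cells, with a median of 21936 UMIs, a median mt- share of 8.98% and 20.6% of the WT and 23.5% of the KO epithelial cells. It was led by Wfdc2 (847 CPM against 291 CPM in the other cells), Acsm3 (230 against 57.3 CPM), the cytoskeletal regulator Csrp2, the stress cytokine gene Gdf15, Stmn1 (140 against 31.0 CPM) and the alcohol dehydrogenase gene Adh1 (680 against 266 CPM), with Ccnd1 and Npm1 among the first 20. In its WT cells the butyrate transporter Slc5a8 stood at 383 CPM, the crypt factor Sox9 at 281, the chloride channel Cftr at 207 and the water channel Aqp4 at 495 CPM, all at lower levels in the goblet-like cells except Sox9 (293 CPM). In the absorptive-like cells Slc5a8 was close, at 343 CPM, and Aqp4 higher, at 557 CPM. Of the 11 cycling genes, 4 were raised in it, but the whole cycling list was at 618 CPM against 727 CPM in sub-cluster 1, so it kept its number. The condition on the summed level was set after these values were seen.

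Sub-cluster 1 had few UMIs (median 2316) and a median mt- share of 33.2%, with 69 of its 81 cells over 15%. Its leading genes were Gm26917, Lars2 and Gm42418, which stood at 79577, 6415 and 114448 CPM in its WT cells. Of the epithelial genes outside the rule Cldn7 was at 1359 CPM. Krt20, a gene of the rule, was at 0, and the absorptive and goblet lists at 2075 and 1508 CPM. Sub-cluster 5 (median 4637 UMIs, mt- share 31.9%) was led by Igkc, Jchain and Igha, plasma cell transcripts, of which 1 cell, described below, held most. In its WT cells Igkc was at 4152, Igha at 3810 and Jchain at 849 CPM, and without that cell at 1355, 1584 and 212 CPM, beside 1050, 1239 and 244 CPM in sub-cluster 1. Leukocyte and class II genes were among its first 20 as well, with Il1b at 159 against 11.1 CPM in the other cells, H2-Eb1 at 230 against 53.1, Laptm5 at 104 against 15.6 and Cd74 at 892 against 362 CPM. Pigr stood at 7206 CPM in its WT cells. Whether its barcodes hold RNA of 2 cells was not tested.

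Junction genes were present in nearly full number. Of 19 genes of tight junctions and adhesion, 18 were at least 4-fold above leukocytes, and the other, Ctnnb1, which also serves Wnt signalling in many cells, stood at 317 against 120 CPM. The pore-forming claudins Cldn2 (64.6 CPM) and Cldn15 (119 CPM) were detected in 30.5 and 42.0% of the cells, and the sealing claudins Cldn3 (587 CPM) and Cldn4 (347 CPM) in 70.0 and 49.4%. Cldn2 was lowest in the absorptive-like cells (8.88 CPM against 69.7 to 127 CPM), and Cldn23 highest (220 CPM against 77.2 to 79.6 CPM). Of 15 keratin and brush border genes, 14 passed the 4-fold mark, again all but Ezr. Among them the microvillus genes Vil1 (245 CPM), Myo1a (276 CPM), Cdhr5 (338 CPM) and Espn (77.4 CPM) were all highest in the absorptive-like cells, where Cdhr5 reached 750 CPM.

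Of the ion and water transport genes 20 of 24 compared were at least 4-fold above leukocytes. The sulphate transporter Slc26a2 stood at 503 CPM, the sodium pump subunit Atp1b1 at 1418 CPM, Car2 at 1274 CPM and Aqp4 at 362 CPM. The epithelial sodium channel was scarcely seen: Scnn1a was at 57.2 CPM, Scnn1b at 2.20 CPM with 6 UMIs, and Scnn1g had no UMI. Scnn1b and Atp12a (20.9 CPM) had no UMI in the leukocytes and were at least 11.5-fold and at least 109-fold higher, against the floor of 3 counts over the leukocytes. Kcnn4 (75.6 against 108 CPM), Slc9a3r1 (129 against 100 CPM) and Slc26a6 were among those that did not pass the mark.

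Butyrate genes were of interest because the study concerns a butyrate-responsive RNA. Of 20 compared, 10 were at least 4-fold above leukocytes and 1, the butyrate receptor Hcar2 of myeloid cells, at least 4-fold below, at 2.57 against 42.6 CPM. Slc5a8, the sodium-coupled importer, was at 263 CPM in 37.0% of cells and Slc16a1, the proton-coupled one, at 167 CPM in 42.8%. Acads, an early enzyme of butyrate oxidation, was at 327 CPM and Hadh, a later enzyme, at 387 CPM. The receptor Ffar2 was at 21.3 CPM over all WT cells, with 101 CPM in the goblet-like cells and at most 3.92 CPM elsewhere, and Ffar3 had no UMI. Both importers were nearly absent from the goblet-like cells, with Slc5a8 at 7.47 and Slc16a1 at 9.34 CPM.

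Of 15 nuclear-encoded respiratory chain genes, 2 (Ndufb9 and Uqcrc1) passed the 4-fold mark, with a list median of 1.53. All 11 detoxification genes passed it, led by Adh1 (404 CPM, 37.8-fold), Gpx2, an intestinal glutathione peroxidase (733 CPM, 24.7-fold), and Cyp3a13 (49.2 CPM, 20.2-fold). Of 26 transcription factor genes 23 passed. The intestinal identity factors Cdx1 (228 CPM), Hnf4a (167 CPM), Klf5 (989 CPM) and Elf3 (588 CPM) were each found in at least 49.8% of the cells. Hoxb13, which marks the distal colon, was at 174 CPM in 28.8% of cells (75.7-fold). Klf4 (1567 against 537 CPM) and Hes1 (357 against 106 CPM) fell short of the mark, and Prdm1 was lower (15.8 against 86.7 CPM).

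Small intestinal genes were low. Of 11 in the list, Lct had no UMI, Sis, Apoa4 and Gata4 had 2 to 4 UMIs, and 3 of the 6 compared were at least 4-fold above leukocytes, Fabp6 at 32.7 CPM, Rbp2 at 12.5 CPM and Defa24, a Paneth cell defensin, at 143 CPM. A single goblet-like cell held 347 of the 390 Defa24 UMIs, 1.51% of its own UMIs, and the next held 2. Defa24 was also seen in 10.3% of the WT leukocytes and 13.0% of the WT B cells.

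Among mucosal defence genes 10 of 13 compared were at least 4-fold above leukocytes and 3 at least 4-fold below. The antibacterial lectins Reg3b (691 CPM) and Reg3g (140 CPM) were found in 17.7 and 11.5% of cells, and a single cell held 43.5% of the Reg3b UMIs. In the absorptive-like cells Reg3b stood at 1477 and Reg3g at 289 CPM, but a single cell held 819 of their 1164 Reg3b UMIs and 131 of their 228 Reg3g UMIs were likewise in 1 cell. Without these cells the levels were 446 and 125 CPM, below the 547 and 127 CPM of sub-cluster 2. Lcn2 (0.367 CPM), Saa3 (7.34 CPM) and Slpi (8.81 CPM) were the genes below leukocytes, and Nos2 had 10 UMIs and Ido1 none. The oxidase genes Duox2 and Duoxa2 stood at 39.6 and 31.9 CPM. Of the cytokine and chemokine list 4 of 9 were at least 4-fold above and 3 below. Il18 (78.2 CPM), the IgA cell attractant Ccl28, Cx3cl1 (34.9 CPM) and Ccl20 (13.6 CPM) were above, Il1rn, Cxcl16 and Tgfb1 below, and Il33 and Tslp had 2 and 1 UMIs.

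The MHC class I genes B2m, H2-K1 and H2-D1 were at 1381, 1249 and 754 CPM against 3344, 1849 and 1266 CPM in leukocytes, within 4-fold. Class II was far lower than in leukocytes, with H2-Aa at 128 against 4869 CPM, H2-Ab1 at 150 against 4229 CPM and Cd74 at 408 against 9013 CPM, and Ciita, the class II activator, had 9 UMIs. H2-Aa had a UMI in 52.3% of the epithelial cells, but in 9.09% after thinning to 500 UMIs.

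Crypt base and proliferation genes were sparse. All 7 stem and progenitor genes compared were at least 4-fold above leukocytes, but at low levels, with 19 UMIs of Ascl2 and 37 of Smoc2. Lgr5, the stem cell receptor, had too few UMIs to be compared, 11 in 3.29% of cells. Sox9 (208 CPM, 47.7%) and Slc12a2 (276 CPM, 48.1%) were broader. None of the 11 cycling genes passed the mark in either direction, the list standing at 379 against 811 CPM in leukocytes. A cell of sub-cluster 2 with 57481 UMIs, the most of any epithelial cell, held 239 of the 1034 cycling UMIs and all 11 genes, with 57 UMIs of Mki67. In sub-cluster 1 Mki67 was at 244 CPM.

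UMIs of the lists of rarer cells lay mostly in single cells. The tuft list had 15 UMIs in WT, 12 of them in a cell of sub-cluster 1 with 1570 UMIs. That cell held 8 of Dclk1, 2 of Trpm5 and 1 each of Avil and Sh2d6, but none of Pou2f3 and Gnat3. Il25 had no UMI in any WT cell. None of the 3 tuft genes compared was at least 4-fold above leukocytes and 1, Sh2d6, was below. The stromal, endothelial, glial and muscle list had 205 UMIs, 172 of them in a cell of sub-cluster 5 with 6285 UMIs, with Dcn at 66, Col3a1 at 41 and Col1a2 at 38 UMIs, which are fibroblast transcripts. Whether that barcode holds 2 cells was not tested. Of the 9 genes of this list compared, none was at least 4-fold above leukocytes and 2, Pecam1 and Vwf, were below. The erythroid list had 12 UMIs, and neither gene compared passed the mark.

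Hormone genes were almost absent from WT and prominent in KO through 1 cell. The enteroendocrine list had 31 UMIs in WT (28 of them of Sct, which encodes secretin and was 4.59-fold above leukocytes, at most 6 in a cell) and 1646 in KO, 1645 of which lay in a single cell of sub-cluster 2. That cell had 17786 UMIs, 4852 genes and an mt- share of 5.13%. It held 1473 UMIs of Pyy, which encodes peptide YY, 149 of Insl5, 8 of Chga, 5 of Chgb and 5 of Neurod1, with 58 of Krt8, 11 of Epcam and 11 of Krt20, and none of Car1. It contributed 11.9% of the UMIs of the KO epithelial cells. Pyy and Insl5 are peptides of L cells of the distal colon. The remaining genes of the list were scarce in this cell, with 1 UMI of Gcg, 2 each of Sct and Scg5, and none of Cck and Tph1. In WT, Pyy had 1 UMI and Insl5, Chga, Chgb and Neurod1 none.

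RNA of leukocytes was low by construction for the 5 genes of the rule (18.3 CPM together, Cd3e at 0), which are also in a wider list of 19 leukocyte genes. Of the 14 genes of that list outside the rule, all were at least 4-fold lower than in leukocytes, together 68.2 against 5048 CPM, the highest being Laptm5 at 20.2 CPM. The summed list of 19 ran from 58.8 to 276 CPM over the sub-clusters. All 7 genes of intraepithelial lymphocytes were lower too, at 8.81 against 1457 CPM. Immunoglobulin RNA was an exception in its reach: Igha had a UMI in 94.2% of the WT epithelial cells (784 CPM) and Igkc in 91.4% (675 CPM), although both levels lay at least 4-fold below those of the leukocytes, as did all 6 genes of the list. The same transcripts, Igha and Igkc, were in 97.1 and 95.7% of all WT leukocytes, and Igha was in 95.6% of 160 WT T cells, which do not make them. In KO, 11.8% of the epithelial cells and 13.0% of the leukocytes had an Igha UMI. A single WT cell of sub-cluster 5 had 49.8% of its 2098 UMIs from immunoglobulin genes, 510 of Igkc, 407 of Igha and 116 of Jchain, and the cell next in number had 66. It held 23.4% of all immunoglobulin UMIs of the WT epithelial cells and was included here because it met the rule.

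Early response genes, which are induced when tissue is dissociated, were at similar levels in both kinds of cells. Of 17, 2 were at least 4-fold above leukocytes (Jun at 1802 against 420 CPM and Atf3 at 1002 against 235 CPM) and 2 below (Ier3 and Hspa1a), with a list sum of 11447 against 11042 CPM. Fos was at 1523 CPM in 85.6% of cells and Egr1 at 1065 CPM. Sub-cluster 1, with the high mt- share, had Jun at 3966 CPM against 1403 to 2200 CPM in the others. The study follows Nr4a1 and Zfp36 in macrophages, and in the WT epithelial cells they stood at 340 and 669 CPM, against 380 and 1143 CPM in the leukocytes.

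The 17 KO epithelial cells were set beside the 243 WT ones as a description of 2 libraries. A few deep cells dominate the KO sum: of its 149130 UMIs, the deepest cell held 28.3% and the next 26.1%, both in sub-cluster 2. Where the deepest cell decides a value, the value without it is given. Ratios are printed for genes whose counting interval left out 0, and levels alone for the others, apart from values under other settings. Values without the deepest KO cell are plain ratios, and those under other settings have 0.5 UMI added. Since a KO count of 0 allows up to 20.1 CPM, a gene low in WT could be seen to be higher in KO more readily than lower. Over 9245 genes with at least 20 UMIs, 10.7% were at least 2-fold higher in KO and 16.8% at least 2-fold lower, while the counting interval of the log2 ratio lay above 0 for 6.05% and below 0 for 7.44%. The median log2 ratio over all these genes was 0.02.

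Absorptive genes were lower in the KO cells. Against the 16.8% of all genes, 13 of the 16 compared were at least 2-fold lower, none was higher, and the interval lay below 0 for 14, with a median log2 ratio of -2.67. No KO cell was in the absorptive-like sub-cluster, so the makeup of the sets differs. For Guca2a the level was 1708 CPM in the WT and 188 CPM in the KO cells, with a log2 ratio of KO to WT of -3.19 (95% interval -3.78 to -2.65), and of -1.92 under the limits of the study. Ceacam1 was at 1816 and 530 CPM (-1.78, -2.12 to -1.46) and Fabp2, a fatty acid carrier, at 498 and 107 CPM (-2.22, -3.03 to -1.51). Lypd8 was at 4610 and 1757 CPM (-1.39, -1.57 to -1.22), but 79.0% of its KO UMIs lay in the deepest cell, without which the log2 ratio was -3.16, and under the limits of the study it was -5.23. Cyp2c55 had 1 UMI in KO (-5.41, -10.72 to -2.93). Slc26a3, Clca4a, Tmigd1, Aqp8, Ceacam20 and Slc9a3 had none, so that Slc26a3 was at least 6.02-fold, Clca4a at least 6.75-fold and Tmigd1 at least 3.10-fold higher in WT against the floor over the KO cells. In WT, 64.9% of the Clca4a UMIs came from 1 cell, without which it was at least 2.41-fold higher. Muc3 and Muc13 were nearer to parity, at -0.58 and -0.56, but at -1.06 and -0.92 without the deepest KO cell. A Muc3 UMI was found in 4 of the 17 KO cells.

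**Figure D5:**
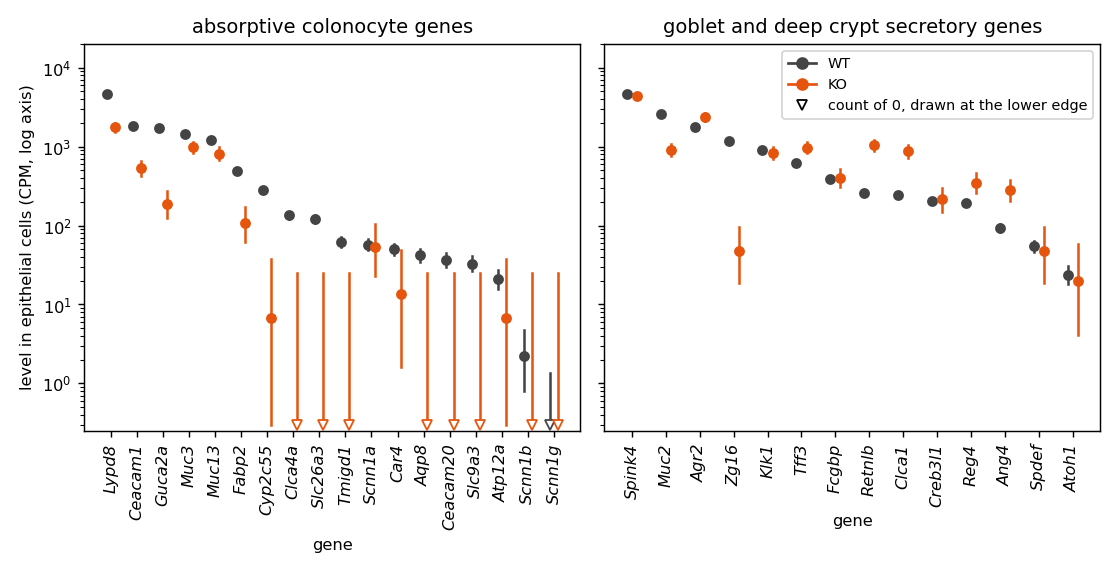
Level (vertical axis, CPM, log scale) of the absorptive genes (left panel) and goblet genes (right panel) in the epithelial cells of WT (dark) and KO (orange), ordered by WT level; points are summed levels, bars 95% Poisson intervals of the counts, and open triangles at the lower edge stand for a count of 0. KO points lie below WT points for nearly every absorptive gene and on either side for the goblet genes.

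Goblet genes showed no common direction, with 3 of 14 at least 2-fold higher and 2 at least 2-fold lower in KO. Over all genes these shares were 10.7 and 16.8%. Spink4 stood at 4668 CPM in the WT and 4426 CPM in the KO cells, and its direction changed with the cells kept, from a log2 ratio of 1.32 with no leukocyte UMI and 1.26 under the limits of the study to -0.96 without the KO cell richest in it. Muc2 was lower in KO, at 2626 and 912 CPM (-1.53, -1.78 to -1.28), but at -0.32 with no leukocyte UMI and at -0.24, with an interval that included 0, under the limits of the study. Lower too was Zg16, at 1163 and 46.9 CPM (-4.63, -5.95 to -3.59). Retnlb, which encodes an antibacterial resistin-like protein of goblet cells, was at 256 and 1046 CPM (2.03, 1.77 to 2.28), Clca1 at 242 and 872 CPM (1.85, 1.57 to 2.12) and Ang4 at 93.2 and 282 CPM (1.60, 1.09 to 2.07). Single cells decide some of these values, since 86.2% of the KO UMIs of Clca1 and 66.7% of those of Retnlb lay in a single cell and 53.3% of the WT UMIs of Zg16 in 1 WT cell. Without the KO cell richest in each gene, Clca1 was lower in KO (-0.92, -1.72 to -0.28), Retnlb was at 0.53 (0.08 to 0.92) and the interval of Ang4 included 0 (-0.19 to 1.21). Without that WT cell Zg16 was at -3.45 (-4.87 to -2.50).

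Of the 17 KO cells 8 (47.1%) and of the 243 WT cells 32 (13.2%) were goblet-like. Within this class, with 27492 UMIs in KO and 535417 in WT, 16.2% of 4245 genes were at least 2-fold higher and 27.4% at least 2-fold lower in KO. Spink4 was at 24007 CPM in KO and 23445 CPM in WT. Agr2 was at 11130 in KO and 8281 CPM in WT (log2 0.43, 0.25 to 0.59) and Muc2 at 4947 and 13227 CPM (-1.42, -1.67 to -1.17). Zg16 was at 255 and 5838 CPM (-4.52) and Retnlb at 5638 and 1244 CPM (2.18). Muc2 and Zg16 were lower and Retnlb higher in KO here too, but these are nearly the same counts as above and add no separate support. The goblet-like cells held all 136 KO UMIs of Muc2, all 7 of Zg16 and 155 of the 156 of Retnlb. These genes also helped to form the sub-cluster. Among the cells are the single ones that hold most UMIs of Retnlb and Zg16. Retnlb had a UMI in 3 of the 8 KO and 18 of the 32 WT goblet-like cells. The goblet-like cells of the 2 libraries also differed in depth, with a median of 3056 UMIs in KO and 13269 in WT, in mt- share, with 1.504 and 7.72%, and in the share of Malat1, with 0.121 and 1.28%. The part of these in the result was not tested.

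General epithelial genes leaned lower in KO by their counting intervals, but not by the 2-fold mark. Of all genes 16.8% were at least 2-fold lower in KO and 10.7% higher. In the epithelial identity list 2 of 20 genes were at least 2-fold lower (Cdh17 and Cdx2) and none higher. The intervals of 12 lay below 0, where 7.44% of all genes did, and the median log2 ratio was -0.48 against 0.02 over all genes. Lgals4 was at 3582 and 3239 CPM (-0.15, -0.28 to -0.01) and Krt19 at 2376 and 2253 CPM. Both relied on the deepest KO cell, without which the log2 ratio was -0.75 for Lgals4 and -1.07 for Krt19. Under the limits of the study these were at -1.39 and -2.41, and with no leukocyte UMI Lgals4 was at 0.0032. Cldn7 was at 1565 and 1375 CPM, with an interval that included 0. Pigr was at 4742 and 3245 CPM (-0.55), at 0.0139 with no leukocyte UMI and at -1.66 under the limits of the study. Of the rule's own genes, Krt8 was at 6249 and 4399 CPM and Car1 at 3842 and 161 CPM, the latter from 24 UMIs of 1 KO cell.

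Several transport and defence genes were lower in KO beyond counting error. Of the ion and water transport list 12 of 23 were at least 2-fold lower and 1, Kcne3, at least 2-fold higher. Over all genes 16.8% were lower and 10.7% higher by this mark. Aqp4 was at 362 and 13.4 CPM (-4.75, -7.80 to -2.90). Of the mucosal defence list 7 of 12 were lower and 3 higher. Reg3b, with 1883 UMIs in WT, had none in KO and was at least 34.3-fold higher in WT, Reg3g at least 6.97-fold and Saa1 at least 6.84-fold (without the WT cell richest in each gene at least 19.5-fold, 4.601-fold and 4.197-fold), although no more than 17.7% of the WT cells had a Reg3b UMI. Of the MHC list 4 of 6 were lower and none higher, with B2m at 1381 and 228 CPM (-2.60, -3.13 to -2.11) and H2-K1 at 1249 and 335 CPM (-1.90, -2.33 to -1.49). All 5 immunoglobulin genes compared were lower, Igkc by -6.65 (-11.96 to -4.17), as Igkc was in the leukocytes of that library (1589 against 45227 CPM).

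Among the butyrate genes 6 of 19 were at least 2-fold lower and 1 higher in KO, beside 16.8 and 10.7% of all genes. The log2 ratios of Cpt1a (-1.47), Acads (-1.44) and Hadhb (-1.23) had intervals below 0, while Slc5a8, at 263 and 235 CPM, and Slc16a1, at 167 and 127 CPM, had intervals that included 0. The higher gene was Ffar2, at 21.3 and 101 CPM (2.24, 1.31 to 3.08), which in WT was a gene of the goblet-like cells.

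The counts of the other lists stand beside 16.8% of all genes at least 2-fold lower and 10.7% at least 2-fold higher. For detoxification 6 of 11 genes were at least 2-fold lower, Aldh1a1 and Cyp2c55 with 1 KO UMI each and Sult1a1 at -2.15, and 1, Adh1, higher at 404 and 878 CPM (1.12, 0.85 to 1.38), but under the 2-fold mark, at 0.69, without the KO cell richest in it. For junctions 5 of 19 were lower, Cldn15 at 119 and 20.1 CPM (log2 -2.56), and Cldn8 was higher (1.24, 0.33 to 2.05), but at -0.50 without the deepest cell. For keratins and brush border 7 of 15 were lower and none higher. For transcription factors 5 of 26 were lower, including Klf4 (-1.41, -1.73 to -1.10, and -0.76 with up to 3 leukocyte UMIs), and 2 higher, Hoxb13 at 174 and 483 CPM (1.47, 1.09 to 1.83) and Foxa2 (1.33, 0.27 to 2.25). With no leukocyte UMI Hoxb13 was at 0.57 with an interval that included 0, as did that of Foxa2 without the KO cell richest in it (-0.50 to 1.97). For the respiratory chain 1 of 15 was lower and none higher.

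Of the 17 early response genes 3 (Ier2, Jund and Hspa1a) were at least 2-fold higher in KO and none lower. Over all genes 10.7% were higher and 16.8% lower by this mark. Ier2 was at 583 and 1227 CPM (1.07, 0.84 to 1.30) and Jund at 1049 and 2112 CPM (interval 0.84 to 1.18), while Hspa1a had 7 UMIs in KO. Atf3 lay just under the mark, at 1002 and 1985 CPM (0.99, 0.81 to 1.16), and Nr4a1 was at 340 and 570 CPM (0.74, 0.41 to 1.07). Fos, at 1523 and 1710 CPM, and Zfp36, at 669 and 597 CPM, had intervals that included 0. Among crypt genes 2 of 6 compared were higher and 1 lower in KO: Smoc2 was at 13.6 and 114 CPM (3.07, 2.15 to 3.93), with 15 of its 17 KO UMIs in 1 cell. Of the 11 cycling genes 2 were higher and 1 lower, Stmn1 at 67.5 and 188 CPM (1.48, 0.85 to 2.05) and Tyms at 20.5 and 60.3 CPM (1.55, 0.35 to 2.58), both with intervals that included 0 without the KO cell richest in the gene. The remaining lists held few genes with enough UMIs. Of the cytokines and chemokines 1 of 8 was higher and 1 lower, and of the small intestinal genes 1 of 3 was lower. Of the leukocyte genes 2 of 5 were higher (1 of them Lyz2, which the rule holds to 1 UMI a cell). All 3 stromal genes were lower by the 2-fold mark, their WT UMIs lying mostly in the cell described above. No interval of a stromal, cytokine or chemokine gene left out 0. Of the rule's leukocyte genes 1 of 2 was higher, Lyz2 again. None of the tuft, intraepithelial lymphocyte and erythroid genes had enough UMIs.

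Over all lists, the 10 genes with the highest ratio of KO to WT whose interval left out 0 were Pyy, Insl5, Smoc2, Lyz2, Ffar2, Retnlb, Clca1, Cdca7, Tyms and Ang4. Lyz2, with 4 KO UMIs, is a gene of the rule, and its interval without the deepest KO cell included 0 (-0.16 to 4.06). Pyy and Insl5 came from the single hormone cell, and of the 11 KO UMIs of Cdca7, a proliferation gene, 90.9% lay in 1 cell. Without the KO cell richest in each gene, Clca1 and Cdca7 turned to lower values, the intervals of Smoc2, Tyms and Ang4 included 0, and Ffar2 stayed above 0 (1.59, 0.24 to 2.59), as did Retnlb. Among the 10 with the lowest were Reg3b, Igkc, Defa24, Reg3g, Saa1, Clca4a, Slc26a3, Igha and Cyp2c55. Defa24 is there through 1 WT cell, without which it stood at 15.9 CPM in WT, under the KO floor of 20.1 CPM. The genes named are antibacterial and acute-phase genes, immunoglobulins and genes of mature colonocytes, and of those named all but Defa24, Igha and Igkc were highest in the absorptive-like cells of WT, of which KO had none. Reg3b and Reg3g were so only through 1 cell for each gene.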

How the data were processed

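Single-cell RNA-seq (3' chemistry, version 3) of 1 WT and 1 KO library from colon was analysed. The authors deposited UMI counts per gene and barcode, not normalized, made per the file headers with Cell Ranger 3.0.2, on mm10 per the submitters' processing notes, which also name Seurat 4. The study gives a larger number of cells, for both WT and KO, than the barcodes analysed here. Of 31053 features, 30934 had an identifier in GENCODE M21.

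Barcodes with at least 200 genes and at most 50% mt- UMIs were kept, and epithelial cells and leukocytes were chosen by marker UMIs. Members and gene lists (26) were chosen with earlier results of these data known. Counts were summed per library as CPM of UMIs outside mt- genes. With 1 library per genotype no test was made. Poisson, Clopper-Pearson and conditional binomial intervals (95%) cover counting error only, and PCR and sampling of mice are outside them. Ratios to leukocytes used genes with at least 20 UMIs and 4-fold as the mark, ratios of KO to WT at least 20 UMIs, 0.5 UMI added for the call, and 2-fold. The intervals were run on simulated Poisson counts, the spread they assume. Their coverage there does not speak for genes whose UMIs lie mostly in single cells. Of genes set lower in KO by 2 and 3 on the log2 scale, 48.9 and 61.2% were recovered. Of those set higher by 2 and 3, it was 98.1 and 100%. Cells were clustered with scanpy 1.11.5 and leidenalg 0.10.2 (10000 UMIs per cell, 1000 variable genes, 15 components, 10 neighbours, resolution 0.5), under Python 3.11.15 with numpy 2.4.6, scipy 1.17.1, pandas 2.3.3 and scikit-learn 1.9.0. Figures were drawn with matplotlib 3.10.9.

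A sub-cluster took a name from at least 3 raised markers (at least 2-fold over the other cells, in at least 10% of its cells), none of another class outnumbering them among its top 10 genes. A further condition, that its summed list exceed that of every sub-cluster without the name, was set after values were seen and keeps sub-cluster 2 unnamed. Doublets were not removed: Scrublet called 0 WT and 1 KO barcodes (0.0345%), which is too few to have worked, and removing the top 3% of scores was tried instead. Genes named are those of the lists, the 20 with the highest CPM in WT epithelial cells outside mt- and ribosomal protein genes, the 20 with the highest ratio to leukocytes (10 CPM added, at least 50 UMIs and 10% of cells), and the 10 highest and 10 lowest list genes in KO to WT. Leading genes of sub-clusters and genes of single cells were named after their values were seen. Pla2g2a and Prac1 of the lists were not analysed here. A few other list genes are counted but not reported by name here.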

Additional observations from a re-analysis of the deposited data

Results flagged for a closer look

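In the WT library, 64 barcodes with more than 50% mt- UMIs met the rest of the epithelial rule and were left out, and in the KO library none did. They had a median mt- share of 69.7%, 664.5 UMIs outside mt- genes and 454.5 genes. A Krt8 UMI was present in 63 of them. Krt8 stood at 4648 CPM, Car1 at 3770 CPM and Lgals4, which the rule did not use, at 2601 CPM, against 6249, 3842 and 3582 CPM in the WT epithelial cells. They were picked out because a signal lay in data outside the comparisons above.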

How the results depend on the processing

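The share of WT barcodes that were epithelial, 8.46%, was 6.69% with at least 10 epithelial UMIs, 6.72% with no leukocyte UMI, 9.75% with up to 3, 3.77% with the 15% mt- limit and 200 to 6000 genes of the study, 5.60% with a 25% mt- limit and 10.3% with none. The median WT mt- share, 17.6%, was 8.32%, 9.77% and 26.0% under the last 3, which set its range by construction. Genes at least 2-fold higher in KO, 993, numbered 1502 with no leukocyte UMI, 1596 under the limits of the study and 405 with at least 50 UMIs. Those at least 2-fold lower, 1549, numbered 993 with at least 50 UMIs and 876 with 1 UMI added. The log2 ratio of KO to WT changed sign as follows, with 0.5 UMI added, among the genes followed through the settings. With no leukocyte UMI, Lgals4 was at 0.0032, Pigr at 0.0139, Spink4 at 1.32, Cdx1 at 0.30 and Fos at -0.39. With up to 3 leukocyte UMIs, Krt18 was at 0.0472 and Fos at -0.14. Under the limits of the study, Krt18 was at 0.0455, Spink4 at 1.26 and Fos at -0.46. With a 25% limit, Krt18 was at 0.0841 and Spink4 at 0.33. Without the deepest KO cell, an alternative chosen after seeing the data like the next 2, Spink4 was at 0.41, and over all list genes 24 changed sign, 2 of them, Cldn8 and Cox8a, with an interval that left out 0 before. Without the KO cell richest in the gene, Agr2 was at -0.0421, Cdca7 at -0.80, Clca1 at -0.92, Cldn8 at -0.28 (-0.50 with nothing added), Fcgbp at -0.59 and Tff3 at -0.22. Without the WT cell richest in it, Atoh1 was at 0.17, Klk1 at 0.0457, Spdef at 0.0965 and Spink4 at 0.11. In these cases the cause was not tested. The share of KO epithelial cells stayed within its interval under all 10 alternatives run for it, and the count of genes at least 4-fold above leukocytes stayed within 1.5 times under all 12. Of the log2 ratios of KO to WT over named genes and settings, 218 stayed within the interval given by all cells, 67 left it and 23 changed sign. No paired analysis was possible because each genotype has 1 library. Depth limits the KO side, where 17 cells with 149130 UMIs allow a level of up to 20.1 CPM at a count of 0.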

Other observations

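The rule kept out barcodes with epithelial RNA and more than 1 UMI of the leukocyte genes, 130 in WT and 20 in KO. The WT ones had a median of 16623 UMIs and Lgals4 at 1716 CPM, against 3582 CPM in the WT epithelial cells. Among them 33 had at least 20 leukocyte UMIs, with Lgals4 at 156 CPM, and in KO 7 did. Whether these barcodes hold 2 cells was not tested.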
